A study of Mus musculus with 2 samples.

Results

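The levels of 42 genes of DNA replication and the S phase of the cell cycle were followed across the cell classes of the embryonic mouse pancreas. The members form the S phase set widely used to score cell cycle phase in single cells, and all 42 symbols were found, each by an exact match, among the 27998 genes of the deposited tables. Pancreata of 2 C57BL/6 embryos of embryonic day 13.5 had been dissociated, sorted for live cells and profiled by droplet RNA sequencing that tags each captured transcript 3' end with a unique molecular identifier (UMI). One embryo was titled control and the other knockout, and the series names its mutant Dpy30∆P, after a core subunit of the complexes that methylate histone H3 at lysine residues. The labels name neither the Cre driver, the deleted part of the gene nor the control's own alleles. With a single embryo and library on either side, differences between the libraries could not be tested, and all intervals are at 95%. Those of levels and ratios cover counting error alone and leave out the spread between cells of a class. Those of shares of cells cover the sampling of cells within 1 library. Neither kind covers the spread between embryos. Pairs of values give the control library first and the knockout-labelled library second.

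The matrices held 3900 and 3044 barcodes with 32702089 and 28033433 UMIs, and 22 barcode sequences occurred in both. After filters, 3744 and 2929 cells were sorted into classes by the UMIs of marker genes, none of them a member, so that no member decided where a cell was placed. Within the epithelium, tip cells carried at least 10 UMIs of acinar genes such as Cpa1 (270 and 219 cells), trunk cells carried duct and progenitor genes such as Spp1 and at most 4 acinar UMIs (130 and 95 cells), and both had no Neurog3 UMI. The factor Neurog3 sets progenitors on the endocrine path; Neurog3-low cells had 1 to 4 of its UMIs (109 and 53 cells) and Neurog3-high cells 5 or more (128 and 55 cells). Chga cells had at least 3 UMIs of Chga, a granule protein of hormone cells (88 and 23 cells). Mesenchyme (2536 and 2035 cells) and mesothelium (144 and 128 cells) were gated on 3 markers each. Classes with under 50 cells in a library, among them the Chga cells of the knockout-labelled library, are given as values only. Dpy30 RNA was not lower in tip or trunk cells of the library labelled knockout, at 236 and 266 CPM (the gene's UMIs scaled to a fixed total per class) in tip and 212 and 280.3 CPM in trunk. It was higher in that library in Neurog3-low (210 and 239 CPM), Neurog3-high (175 and 223 CPM) and mesenchyme cells (101 and 115 CPM). Dpy30 RNA was lower there in mesothelium (194 and 145 CPM). Immune cells, of which that library held 19, stood at 107 and 86.3 CPM. Where the deleted part lies outside the tagged 3' end, this level says nothing of the deletion.

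Before S phase, the origin recognition complex, Cdc6 and Cdt1 load the ring-shaped MCM2-7 helicase onto DNA, and geminin (Gmnn) blocks loading again once replication has begun. In S phase, Cdc45 and the GINS complex activate the helicase, primase and polymerases copy both strands around the sliding clamp PCNA, and ribonucleotide reductase and thymidylate synthase supply nucleotides. E2F transcription factors, held back by the retinoblastoma proteins in resting cells, switch on much of this set. In the embryonic pancreas, tip and trunk progenitors divide, while cells with high Neurog3 leave the cycle as they become endocrine cells.

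Letters of the E2F binding word were searched in the members' promoters because that factor family is what the set is best known to share. RefSeq promoter windows (GRCm38.p6, 250 bases before to 50 after a start) were found for 32 of the 42 members. The words TTTCCCGC and TTTGGCGC, on either strand, stood in 12 of these 32 members (37.5%), in 11 of 36 genes (30.6%) of a second replication list, in 2 of 47 genes (4.26%) of a list for G2 and mitosis, and in 486 of 27025 genes (1.80%) with a window of the same length. Among the 6668 genes with a window and at least 20 UMIs in trunk cells the share was 4.05%. A match is a description of letters and not a bound site. The following stretches of 30 bases, read 5′ to 3′ along the gene, hold the word or its reverse complement in capitals, with its first base before the RefSeq start. The Dtl stretch crosses that start, and those of Mcm7, Cdc6 and Hells lie inside the gene bounds of GENCODE vM21. Shown as examples are sites of 3 helicase subunits, the loading factor Cdc6 and the chromatin remodeller Hells. Sites of the ubiquitin ligase adaptor Dtl and of Casp8ap2, a regulator of histone genes, are shown too. Levels of these genes are followed below, as are those of other members with a match.
Mcm5 (chr8:75109349-75109378, plus strand): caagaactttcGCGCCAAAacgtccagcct
Mcm6 (chr1:128359797-128359826, minus strand): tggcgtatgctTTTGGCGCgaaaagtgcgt
Mcm6 (chr1:128359734-128359763, minus strand): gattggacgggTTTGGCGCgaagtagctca
Mcm7 (chr5:138172030-138172059, minus strand): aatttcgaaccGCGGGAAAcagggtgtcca
Cdc6 (chr11:98908002-98908031, plus strand): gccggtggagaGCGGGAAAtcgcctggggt
Hells (chr19:38930917-38930946, plus strand): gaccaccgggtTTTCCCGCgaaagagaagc
Dtl (chr1:191575534-191575563, minus strand): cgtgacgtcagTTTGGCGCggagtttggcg
Casp8ap2 (chr4:32615283-32615312, plus strand): aagtaccagagTTTGGCGCcaactggaatc
Mcm6 held the TTTGGCGC word at both places. Mcm5 held the same word on the opposite strand, and the Mcm7 and Cdc6 stretches held TTTCCCGC on the opposite strand. The remaining matches stood in Mcm3, Cdca7, Pold3, Ubr7 and Pola1. Members with a match did not form 1 group in the data below: Hells and Mcm5 were among the members furthest down in hormone cells, whereas Casp8ap2 and Ubr7 were among the members nearest to their trunk level there.

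Among the epithelial classes, the summed RNA of the 42 members was higher in trunk, tip and Neurog3-low cells, lower in Neurog3-high cells and lowest in Chga cells. In the control library the sum was 3661 CPM (95% interval 3607 to 3714) in tip, 3742 CPM (95% interval 3646 to 3839) in trunk, 3329.7 CPM (95% interval 3236 to 3425) in Neurog3-low, 2048 CPM (95% interval 1967 to 2131) in Neurog3-high and 754 CPM (95% interval 693 to 819.8) in Chga cells. In the knockout-labelled library it was 3100.4 CPM (95% interval 3046 to 3156) in tip, 4016 CPM (95% interval 3906 to 4129) in trunk, 3112 CPM (95% interval 2979.7 to 3248) in Neurog3-low, 1776 CPM (95% interval 1673 to 1884) in Neurog3-high and 760.1 CPM (95% interval 637 to 899.7) in Chga cells. Both libraries thus placed Neurog3-high cells below trunk, tip and Neurog3-low cells, and Chga cells below Neurog3-high cells. The order of tip and trunk in the control library is not settled, since their intervals overlapped and the log2 ratio of tip over trunk turned from -0.03 to 0.26 with median-of-ratios or TMM scaling. The tip and Neurog3-low intervals overlapped in the knockout-labelled library. Mesenchyme lay between Neurog3-low and Neurog3-high cells, at 2570.3 and 2609 CPM, and mesothelium stood above it, at 3297 and 2919.7 CPM. Of the small classes, endothelium stood at 1601 and 1609.6, immune cells at 2431 and 2603 and neural cells at 3217 and 3938 CPM.

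**Figure D1:**
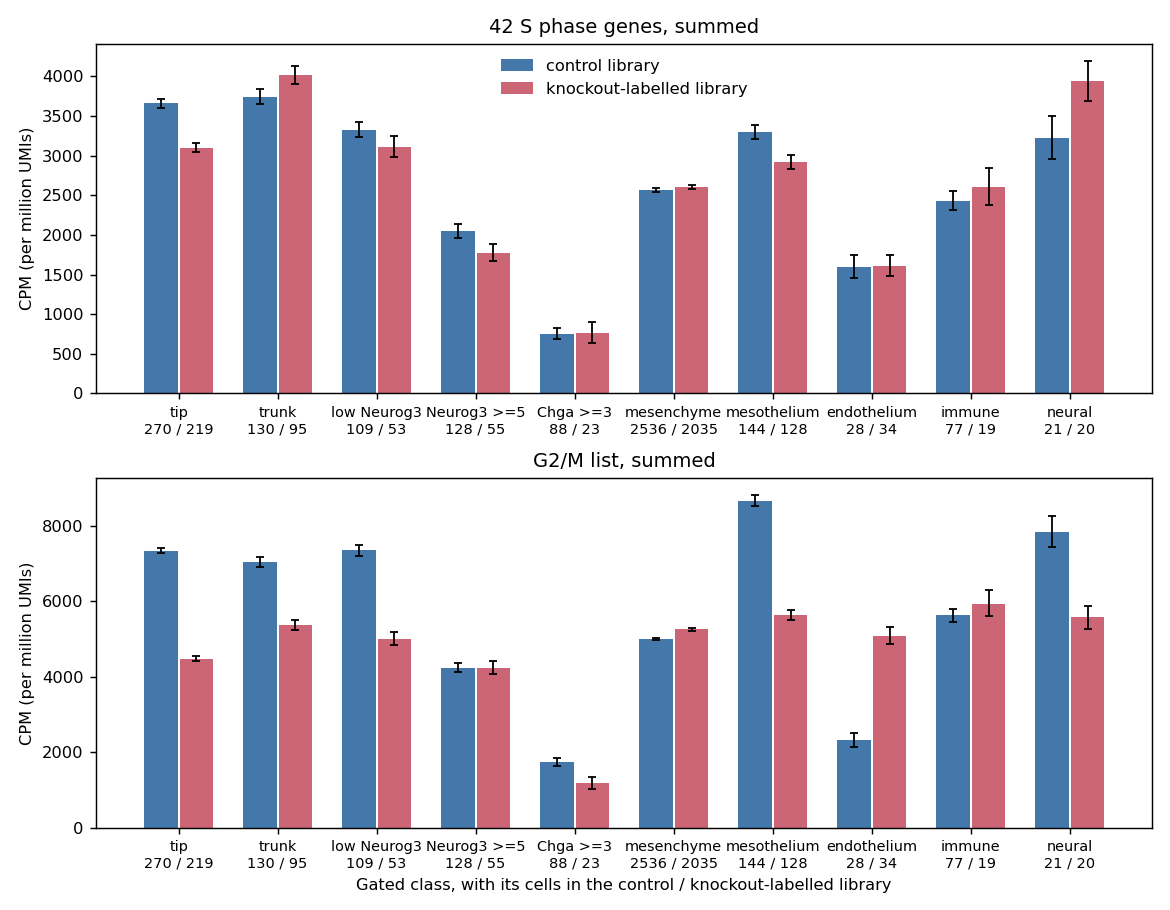
Summed level of the 42 S phase genes (top) and of the 53 genes of G2 and mitosis (bottom) in CPM for each gated class, with the number of cells per library under its name; bars are the value of 1 library each and error bars are 95% exact Poisson intervals. The S phase sum falls from 3742 CPM in trunk to 754 CPM in Chga cells of the control library, and the G2 and mitosis sum differs between the libraries in tip cells, at 7343 and 4481 CPM.

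Single members differed in level widely. UMIs count transcript 3' ends, so these levels carry no length term. Nasp, a chaperone of histones H3 and H1, was the highest member in tip, trunk, mesenchyme, mesothelium and the 3 endocrine classes of both libraries, at 306 and 303 CPM in trunk. Brip1, a repair helicase, and E2f8, a repressing E2F factor, were the lowest in trunk, at 10.3 and 14.4 and at 13.5 and 13.6 CPM. The median member stood at 71.8 and 78.5 CPM there. The 5 highest members made up 29.1% of the trunk sum and 51.3% of the Chga-cell sum in the control library, so a few genes carried much of what remained in hormone cells. Nasp lies on chromosome 4 from 116601052 to 116627941, Pcna on chromosome 2 from 132249162 to 132253314 and Rrm2 on chromosome 12 from 24708241 to 24714146 (GRCm38, GENCODE vM21), and the 42 genes lie on 17 chromosomes.

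The first comparison asked how the members change from trunk to Neurog3-high cells of the same library. The sum of the list stood at 0.547 (0.522 to 0.574) of the trunk level in control cells; for the knockout-labelled library it was 0.442 (0.414 to 0.472). Member ratios are log2 of (CPM + 5) over (CPM + 5), for genes with at least 20 UMIs over both sides, which understates the ratios of low genes. In the control library 39 of the 42 members that passed were lower than in trunk (52.4% of all genes tested), 17 of them 2-fold or more, against a background of 5.32% of all genes tested. In the knockout-labelled library all 41 of 41 were lower (50.3%), 24 of them 2-fold or more, with a background of 5.53%. The median member ratio was -0.80 and -1.09, and the median over all genes tested -0.03 and -0.01. Whether the difference between the libraries in this ratio exceeds the spread between embryos was not tested. Unlike trunk, the Neurog3 classes were gated without a limit on acinar UMIs. The acinar genes of the tip gate summed to 1507 and 762 CPM in Neurog3-high cells, against 121 and 85.7 in trunk. In Neurog3-low cells they summed to 1654 and 470 CPM. What this difference in acinar RNA contributes to the ratios was not tested.

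Helicase subunits were lower but most stayed within 2-fold in the control library. Mcm2 stood at 83.7 and 78.5 CPM in trunk and 81.7 and 49.7 in Neurog3-high cells, so it was level in the control library and lower in the knockout-labelled one. Mcm3 stood at 162 and 160.2 and then 95.3 and 77.0 CPM, Mcm4 at 73.4 and 84.1 and then 52.8 and 43.3, and Mcm5 at 97.8 and 111 and then 47.7 and 61.0. Mcm6 went from 193 and 191 CPM to 124 and 97.9, and Mcm7 from 154 and 180.2 to 92.8 and 70.6. These 5 subunits were lower in Neurog3-high cells of both libraries. Gins2, a subunit of the GINS complex, was the only one of the 8 helicase genes past 2-fold in the control library, at 91.4 CPM in trunk and 33.2 in Neurog3-high cells, whereas 4 of 8 passed it in the knockout-labelled library.

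The members furthest down included genes of nucleotide supply, repair and licensing. Rrm2, the S phase subunit of ribonucleotide reductase, stood at 127 [109.7 to 146] and 166 [144 to 189.97] CPM in trunk and 35.7 [25.8 to 48.3] and 33.7 [20.9 to 51.5] in Neurog3-high cells, log2 ratios of -1.69 and -2.14. Its partner Rrm1 stood at 76.6 and 74.5 CPM in trunk and 57.9 and 35.3 in Neurog3-high cells, and Tyms, thymidylate synthase, at 163 and 152 and 57.9 and 69.0. Ung, a glycosylase that removes uracil from DNA, had the lowest control ratio of all members (-2.13), from 125 to 24.7 CPM. Gmnn followed at -1.96, from 237 to 57.0 CPM. Clspn, a mediator of the replication checkpoint, had the lowest ratio in the knockout-labelled library (-2.35), from 69.7 to 9.63 CPM, and Atad2, a bromodomain protein of replicating chromatin, followed (-2.15).

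The sliding clamp Pcna stood at 88.8 and 134.5 CPM in trunk and 47.7 and 40.1 in Neurog3-high cells, log2 ratios of -0.83 and -1.63. At the upper end, Casp8ap2 (44.4 and 58.5 CPM in trunk, 51.1 and 52.9 in Neurog3-high cells) and Pola1, the catalytic subunit of the priming polymerase (33.5 and 43.2 and 37.5 and 36.9), had the highest ratios in both libraries, at 0.18 and -0.13 and at 0.14 and -0.20. Cdc45, with 0.00, was level in the control library. After thinning each cell to 3000 UMIs, Rrm1 and Mcm2 stood above trunk in the control library, at log2 ratios of 0.76 and 0.54. In Neurog3-low cells 27 of 42 and 39 of 42 members were lower than in trunk (54.3% and 48.8% of all genes tested), 0 and 1 of them 2-fold or more (background 0.287% and 0.808%).

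The other lists moved with the members to different degrees. Of the second replication list, 34 of 38 and 34 of 37 genes were lower in Neurog3-high than in trunk cells, where 52.4% and 50.3% of all genes tested were lower, with thymidine kinase Tk1 lowest in both libraries (113 against 27.2 and 107 against 25.7 CPM). E2f1, an activating E2F factor, had the highest ratio of that list in the control library, at 22.5 CPM in trunk and 52.8 in Neurog3-high cells (log2 ratio 1.07). Of the 53 genes of G2 and mitosis, 51 of 52 were lower in the control library and 35 of 52 in the knockout-labelled library, against the same shares of all genes, with sums of 0.602 (0.582 to 0.623) and 0.791 (0.755 to 0.827) of trunk. Among D cyclins and cycle inhibitors, Cdkn1a, the inhibitor p21, stood at 133 and 74.5 CPM in trunk and at 1219.8 and 1166 in Neurog3-high cells, and Ccnd1, cyclin D1, at 379 and 300.3 in trunk against 101 and 125 CPM.

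**Figure D2:**
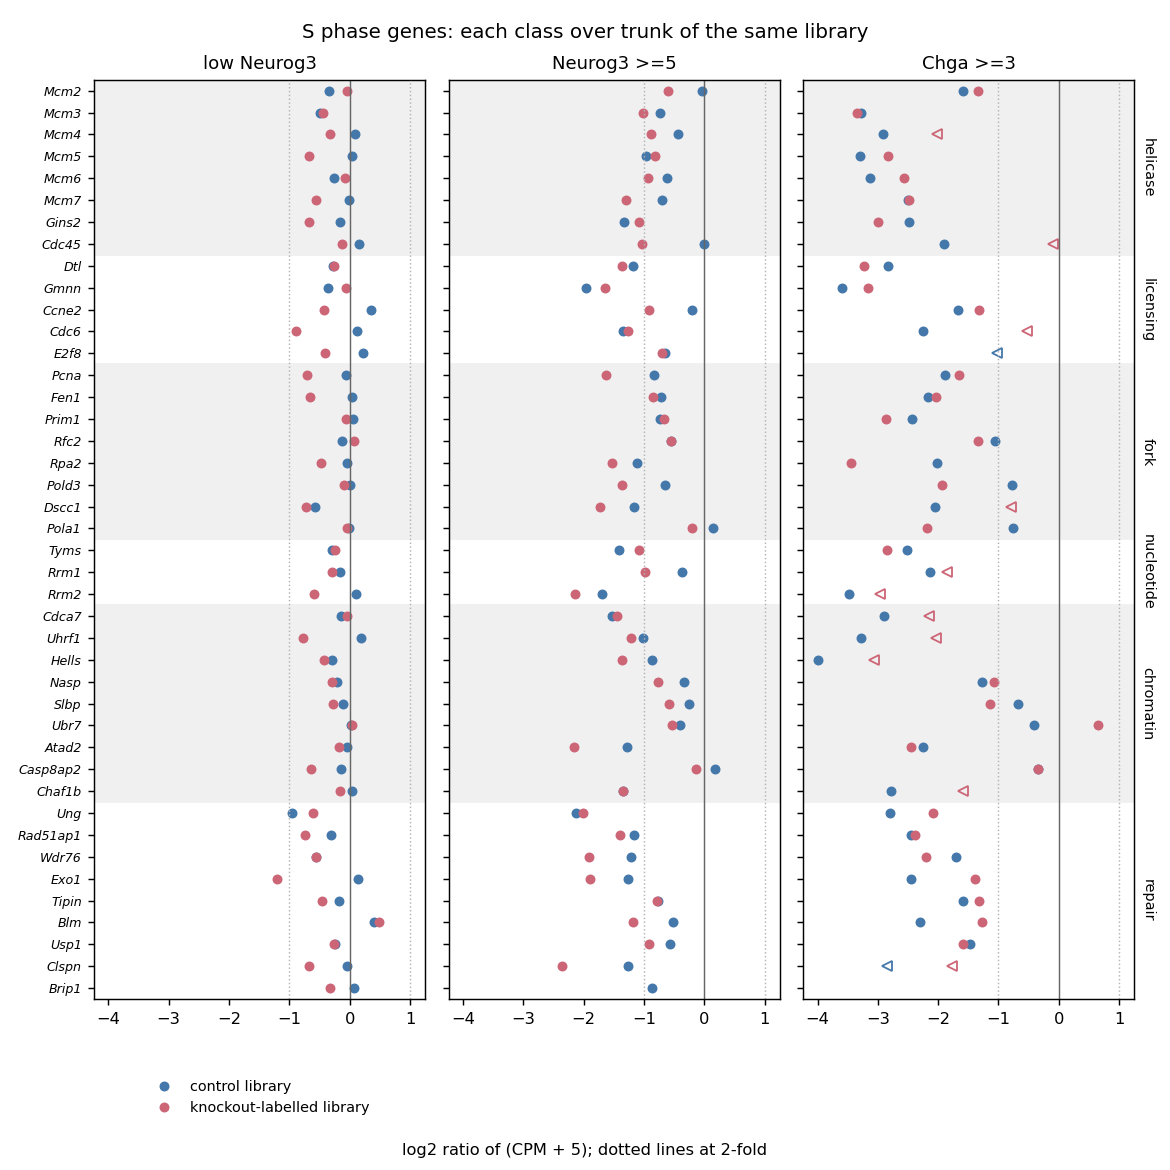
Log2 ratio of (CPM + 5) of each S phase gene in Neurog3-low, Neurog3-high and Chga cells over trunk cells of the same library, with genes grouped by role, blue for the control and red for the knockout-labelled library; open triangles set a gene with no UMI at 3 counts, and genes under 20 UMIs are left out. Points move left from the first to the last panel, and Casp8ap2, Ubr7 and Slbp stay nearest to 0 in Chga cells of the control library.

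Raw UMI gates favour deep cells, so the order along Neurog3 was also read after each epithelial cell was thinned to 5000 UMIs, with levels taken from the unthinned counts. Chga cells were left out of this order, thinned or not. Cells with no Neurog3 UMI (463 and 350 cells) held 3649 and 3309 CPM of the S phase list, and cells with 1 UMI (48 and 31 cells) held 3594 and 3293 CPM. With 2 to 9 UMIs (45 and 26 cells) the sum was 2588 and 1941 CPM and with 10 or more (85 and 27 cells) 1691 and 1185 CPM. The list was therefore already lower at 2 to 9 Neurog3 UMIs in both libraries. The G2 and mitosis list was not: it stood at 7383 and 4798, 7385 and 5530.5, 8490.1 and 5293 and then 1719 and 1493 CPM over the same bins, so that at 2 to 9 UMIs it was at or above its level in cells without Neurog3. For the control library this depends on the gating: binned on unthinned Neurog3 UMIs, the G2 and mitosis list stood at 7353 CPM (7289 to 7417) without Neurog3 and 6716 (6515 to 6922) at 2 to 9 UMIs, while the S phase list was again lower, at 3666 and 2440 CPM. Cdkn1a was higher along the bins, at 119.8 and 109, 378 and 334, 1088 and 1152 and 1294 and 1516 CPM. The 4 bins were merged after the values were seen, and the bins of the knockout-labelled library above 1 UMI are small. In finer bins of unthinned UMIs the G2 and mitosis list had no single direction. For the control library it stood at 7113 CPM at 2 to 4 and 5665 at 5 to 9 UMIs. It was 8760 CPM (8439 to 9090) at 10 to 19 and 1753 at 20 or more UMIs. The knockout-labelled library held 5956, 8526, 1375 and 3048 CPM over these finer bins, which hold 11 to 80 cells.

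**Figure D3:**
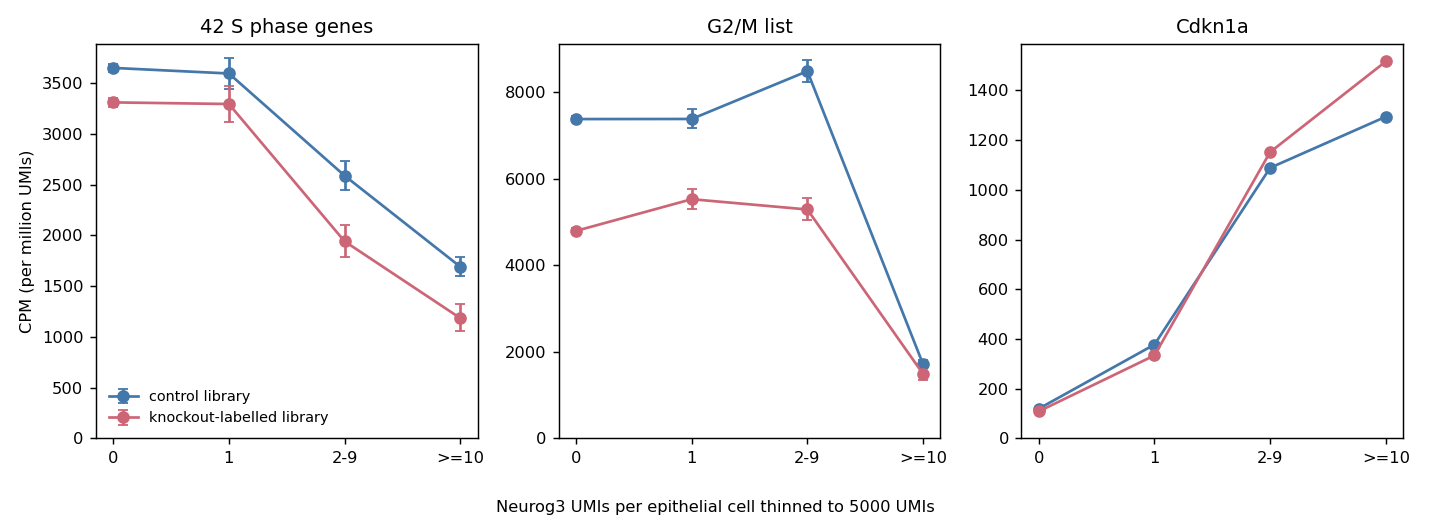
Summed CPM of the 42 S phase genes (left), of the G2 and mitosis list (middle) and CPM of Cdkn1a (right) in epithelial cells ordered by their Neurog3 UMIs after thinning to 5000 UMIs; points are 1 library each, and the 2 list panels carry 95% exact Poisson intervals. The S phase sum is lower from the bin of 2 to 9 UMIs on, while the G2 and mitosis sum is lower from 10 UMIs on. With unthinned gates the control G2 and mitosis sum is lower at 2 to 9 UMIs. It is then 8760 CPM at 10 to 19 UMIs, above the 7353 CPM without Neurog3. Chga cells are left out.

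In Chga cells nearly all members were far below trunk. The sum stood at 0.202 (0.184 to 0.220) of trunk in the control and 0.189 (0.158 to 0.225) in the knockout-labelled library. In the control library all 41 of 41 members that passed were lower (44% of all genes tested) and 36 were 2-fold or more lower, against a background of 12.3%. The median was -2.24, with genes at 0 set to 3 counts as well, and 0.12 over all genes tested. The 23 Chga cells of the knockout-labelled library left 13 members with no UMI, and with those set to 3 counts 35 of 40 members were 2-fold or more lower (background 18%), with a median of -2.03. Hells stood at 181 CPM in trunk and 6.78 (2.20 to 15.8) in Chga cells of the control library. Gmnn stood at 14.9, Rrm2 at 6.78, Mcm5 at 5.43 and Mcm3 at 12.2 CPM, against 237, 127, 97.8 and 162 in trunk. Clspn and E2f8 had no UMI there, where 3 counts would be 4.07 CPM, while Clspn stood at 60.5 CPM in trunk.

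Casp8ap2, Slbp and Ubr7, 3 members placed under chromatin, stood nearest to their trunk level in hormone cells of the control library. Casp8ap2 stood at 33.9 and 45.0 CPM in Chga cells against 44.4 and 58.5 in trunk, and Slbp, which binds the stem loop of histone messenger RNAs, at 106 and 84.5 against 172 and 193. Nasp stood at 123 [99.4 to 152] and 141 [91.1 to 208] CPM there. Ubr7, a ubiquitin ligase of chromatin, was the sole member of 40 with a ratio above 0 in the knockout-labelled library, where 49.7% of all genes tested were lower, on 7 UMIs in Chga cells or 39.4 CPM (15.8 to 81.2). Chga cells of the knockout-labelled library also held more RNA of the tip list than those of the control library (3102 against 558 CPM, with Cpa1 at 366 against 29.9), and the part of RNA from other cells in what remains of the members there was not tested.

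Between the libraries, tip and trunk cells differed in direction. In tip cells the S phase sum of the knockout-labelled library stood at 0.847 (0.828 to 0.867) of the control level, in trunk cells at 1.07 (1.03 to 1.11) and in mesenchyme at 1.01 (1.00 to 1.03). In tip cells 35 of 42 members were lower in the knockout-labelled library (49.6% of all genes tested) and 7 higher, with a median of -0.21, where all genes tested had 0.00. Only Rad51ap1, a gene placed under repair, was past 1.5-fold, against a background of 2.58% lower and 1.81% higher, so the difference was small per gene and spread over the list. In trunk cells 27 of 42 were higher (49.4% of all genes tested) and 15 lower, with a median of 0.12, and Ccne2, cyclin E2, was the one member past 1.5-fold (background 4.1% higher and 4.94% lower). In mesenchyme none of 42 was past 1.5-fold (background 0.503% and 0.75%) and the median was 0.03. The tip and trunk difference was not tested, since each side is 1 library. The intervals of these sums also leave out the spread between cells. In trunk the shares of cells with at least 10 member UMIs, after thinning to 3000 UMIs, had overlapping intervals (33.5% to 51.2% and 40.1% to 60.9%).

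In tip cells the lowest ratios were those of Rad51ap1 (59.7 [53.1 to 66.9] and 37.1 [31.4 to 43.6] CPM), Clspn (53.9 and 34.9), Fen1, the flap endonuclease that matures lagging-strand fragments (75.1 and 50.3), and Rrm1 (90.9 and 61.6). All 8 helicase genes and all 3 nucleotide genes were lower there: Mcm6 stood at 183 [171 to 195] and 142 [130.4 to 154], Mcm3 at 125 and 99.5, Mcm2 at 71.7 and 64.1, Mcm4 at 59.1 and 52.8, Mcm5 at 95.6 and 89.9 and Mcm7 at 175 and 151 CPM. Rrm2 stood at 183 [171 to 195] and 132 [121 to 143] and Tyms at 189.7 and 145 CPM. Ccne2 (25.7 and 34.1 CPM), Ung (93.3 and 113), Cdca7, a partner of Hells (86.7 and 94.2), and Pcna (99.0 and 104) had the highest ratios, from 0.35 to 0.07. After thinning to 3000 UMIs Mcm5 turned to 0.28 and Pcna to -0.13.

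In trunk cells Ccne2 (28.3 [20.6 to 38.0] and 49.7 [38.1 to 63.7] CPM), Pcna (88.8 [74.6 to 105] and 134.5 [115 to 157]), Pold3, an accessory subunit of DNA polymerase delta (54.7 and 78.5), and Gins2 (91.4 and 124) had the highest ratios, 0.71, 0.57, 0.48 and 0.42. Rrm2 stood at 127 and 166 CPM. Gmnn (237 and 192), the helicase Blm (26.4 and 20.8), Ung (125 and 112) and Tyms (163 and 152) had the lowest, from -0.29 to -0.09. Ccne2 and Pcna were the 2 members with a ratio above 0 in tip, trunk, mesenchyme and mesothelium alike that were also among the 4 highest in each of them. In mesenchyme Pcna stood at 57.4 [53.8 to 61.1] and 75.4 [71.2 to 79.9] CPM (log2 ratio 0.37), Usp1, a deubiquitinase acting on the clamp, at 28.5 and 36.2, Ccne2 at 31.8 and 38.4 and Dscc1, a part of an alternative clamp loader, at 13.3 and 16.0 CPM. At the lower end of mesenchyme, Dtl stood at 102 [97.4 to 107] and 84.9 [80.4 to 89.6], Uhrf1, which recruits the maintenance DNA methyltransferase, at 42.3 and 36.5, Mcm2 at 58.8 and 51.7 and Clspn at 48.8 and 43.7 CPM.

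Mesothelium was nearer to tip than to mesenchyme in this comparison, with a sum of 0.886 (0.849 to 0.924) of control, 30 of 42 members lower (53.9% of all genes tested) and a median of -0.13. Its lowest members were the nucleotide genes Tyms (133 [115 to 153] and 77.7 [63.7 to 93.9] CPM, past 1.5-fold, against a background of 5.19%), Rrm1 (85.5 and 56.6) and Rrm2 (143 and 96.5), and its highest was Pcna (52.6 and 74.8). In Neurog3-low cells 28 of 42 members were lower (46.3% of all genes tested), 5 past 1.5-fold (background 6.96%), with a sum of 0.935 (0.887 to 0.984). In Neurog3-high cells 26 of 37 were lower (49.4% of all genes tested), 6 past 1.5-fold (background 6.94%), and Gins2 was past it upward (33.2 and 56.2 CPM, background 6.95%), with a sum of 0.867 (0.807 to 0.932). Chga cells had 11 members with at least 20 UMIs over both libraries, and the sum over all 42 was 1.01 (0.828 to 1.22) of control.

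**Figure D4:**
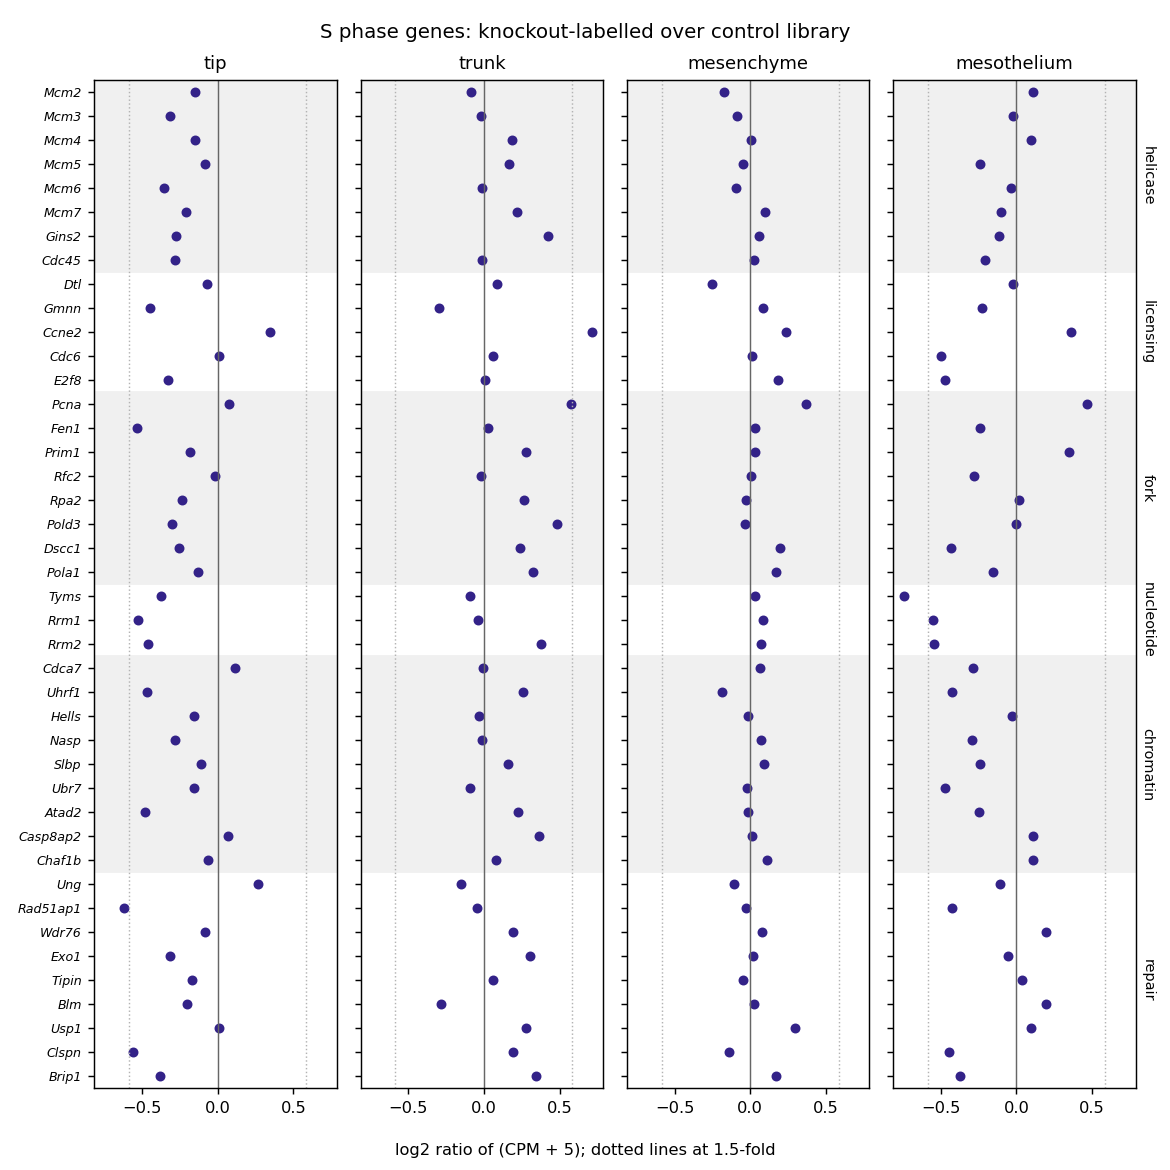
Log2 ratio of (CPM + 5) of each S phase gene in the knockout-labelled over the control library in tip, trunk, mesenchyme and mesothelium; each point is 1 gene, genes are grouped by role, and dotted lines mark 1.5-fold. Points lie mostly left of 0 in tip (35 of 42) and mostly right of 0 in trunk (27 of 42), and those of mesenchyme lie close to 0.

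The other cycle lists were compared between the libraries in the same way. In tip cells, where 49.6% of all genes tested were lower and 2.58% lower by 1.5-fold or more, 33 of 41 genes of the second replication list were lower, with Rfc5 (102 and 60.1 CPM) and Dbf4 (47.4 and 28.0) lowest, and its sum was 0.882 (0.858 to 0.908) of control. The G2 and mitosis list was further down than the S phase list, with 52 of 53 genes lower, 34 of them past 1.5-fold, and a sum of 0.610 (0.599 to 0.621). In trunk cells, where 49.4% of all genes tested were higher, 29 of 38 genes of the second replication list were higher, with a sum of 1.14 (1.09 to 1.19), while 47 of 52 genes of G2 and mitosis were lower, with a sum of 0.762 (0.739 to 0.786). In mesothelium the G2 and mitosis sum was 0.649 (0.631 to 0.668) and in mesenchyme 1.05 (1.04 to 1.06) of control. In Neurog3-high cells the G2 and mitosis list stood at 4237 and 4241 CPM and the second replication list at 1371 and 1327 CPM, both with overlapping intervals. In trunk cells the sums of replication genes and of mitosis genes thus lay on opposite sides of the control level.

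Tip cells were also ordered by their tip-list UMIs, among epithelial cells without Neurog3 after thinning to 5000 UMIs. Chga cells were left out here too. The S phase sum of the control library was 3544 CPM at 0 tip UMIs (75 cells), 3724 at 1 to 4 (116 cells), 4182 at 5 to 9 (41 cells), 3536 at 10 to 49 (137 cells) and 3661 at 50 and over but under 200 (90 cells). In the knockout-labelled library it was 3682 (74 cells), 4019 (67 cells), 3244 (33 cells), 2998 (144 cells) and 2757 CPM (29 cells) over the same bins. The bins from 200 UMIs on hold 4 and 3 cells, at 2012 and 3614 CPM. The control sum had no single direction along the tip list and was highest at 5 to 9 UMIs among the bins of over 4 cells. The knockout-labelled sum was highest at 1 to 4 UMIs and lower in the bins from 5 to under 200. At 0 tip UMIs the intervals of the libraries overlapped (3426 to 3665 and 3569.5 to 3798 CPM).

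Compared with trunk of the same library, tip cells stood at 0.978 (0.9497 to 1.01) in the control and 0.772 (0.747 to 0.798) in the knockout-labelled library, and no member was past 2-fold in either (background 2.9% and 3.05% lower, 1.57% and 2.02% higher). In this comparison the median of all genes tested was -0.18 in both libraries and the members' medians -0.06 and -0.36, so relative to all genes the members were higher in tip of the control library and lower in tip of the knockout-labelled library. With median-of-ratios scaling, which removes that shift, the log2 ratio of the sum was 0.26 and -0.10. Rrm2 had the highest control ratio (0.51). Mesenchyme stood at 0.687 (0.668 to 0.706) and 0.649 (0.631 to 0.669) of trunk, with Ung (33.9 and 31.1 CPM), Gmnn (71.2 and 75.9), Wdr76 (14.0 and 15.1) and Rrm2 (59.1 and 62.2) among the members lowest against trunk, and 4 and 8 members 2-fold or more lower (background 8.78% and 8.13%). Mesothelium stood at 1.28 (1.24 to 1.32) and 1.12 (1.08 to 1.16) of mesenchyme, where Rrm2 was the sole member 2-fold or more higher, in the control library (background 5.39% and 5.24%).

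The spread between single cells showed how each class total is made up. Each cell was thinned to 3000 UMIs, leaving out 0 to 32 shallower cells per class and library, and its member UMIs were summed. The median cell held 9 and 6 member UMIs in tip, 7.50 and 10 in trunk, 4 and 3 in Neurog3-high, 2 and 3 in Chga cells and 5 and 5 in mesenchyme. Before thinning the tip medians were 56.5 and 36. Cells with at least 10 member UMIs numbered 132 of 270 (48.9%, 42.8 to 55.02) and 71 of 219 (32.4%, 26.3 to 39.1) in tip, 54 of 128 (42.2%, 33.5 to 51.2) and 48 of 95 (50.5%, 40.1 to 60.9) in trunk, 16 of 128 (12.5%, 7.32 to 19.5) and 4 of 55 (7.27%, 2.02 to 17.6) in Neurog3-high, and 566 of 2509 (22.6%, 20.9 to 24.2) and 486 of 2003 (24.3%, 22.4 to 26.2) in mesenchyme. In Chga cells there were 0 of 86 (0%, 0 to 4.20) and 0 of 23 (0%, 0 to 14.8). This cut has no gap around it: 28 of 270 control tip cells lay at the cut or 1 UMI below it.

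Variance over mean of the member sum, which is near 1 for counting noise alone, was 4.70 and 5.40 in tip, 6.10 and 5.25 in trunk, 5.59 and 2.51 in Neurog3-high and 5.16 and 5.03 in mesenchyme. In Chga cells it was 0.963 and 1.202, and no Chga cell held more than 7 and 8 member UMIs. With cells thinned to 5000 UMIs the values were 6.07 and 8.63 in tip, 9.98 and 8.99 in trunk, 7.65 and 3.87 in Neurog3-high, 7.44 and 7.61 in mesenchyme and 1.59 and 0.727 in Chga cells, where 1 control cell then reached 15 member UMIs. Gene by gene, Rrm2 spread most in tip, at 1.71 and 1.70, with a UMI in 34.8% and 22.4% of thinned cells (73.7% and 52.5% unthinned), and in 3.49% of control Chga cells. Nasp, with a UMI in 56.7% and 44.7% of thinned tip cells, had 1.17 and 1.21.

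Cells were also divided by both lists, with 10 UMIs at 3000 as the cut for each. Tip cells below both cuts were 58 of 270 cells (21.5%, 16.7 to 26.9) in the control and 108 of 219 cells (49.3%, 42.5 to 56.1) in the knockout-labelled library. Tip cells at or above both cuts were 100 of 270 cells (37.0%, 31.3 to 43.1) and 42 of 219 cells (19.2%, 14.2 to 25.03). Those above the G2 and mitosis cut alone were 80 of 270 cells (29.6%, 24.2 to 35.5) and 40 of 219 cells (18.3%, 13.4 to 24.0), and those above the S phase cut alone 32 of 270 cells (11.9%, 8.25 to 16.3) and 29 of 219 cells (13.2%, 9.05 to 18.5). In trunk the cells below both cuts were 47 of 128 cells (36.7%, 28.4 to 45.7) and 32 of 95 cells (33.7%, 24.3 to 44.1), in Neurog3-high 97 of 128 cells (75.8%, 67.4 to 82.9) and 42 of 55 cells (76.4%, 63.0 to 86.8), and in Chga cells 84 of 86 cells (97.7%, 91.9 to 99.7) and 22 of 23 cells (95.7%, 78.1 to 99.9). In mesothelium they were 56 of 144 cells (38.9%, 30.9 to 47.4) and 64 of 127 cells (50.4%, 41.4 to 59.4) and in mesenchyme 1670 of 2509 cells (66.6%, 64.7 to 68.4) and 1256 of 2003 cells (62.7%, 60.5 to 64.8). These divisions by 2 lists were chosen after values were seen, and fewer cycling cells cannot be told from less cycle RNA per cell.

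**Figure D5:**
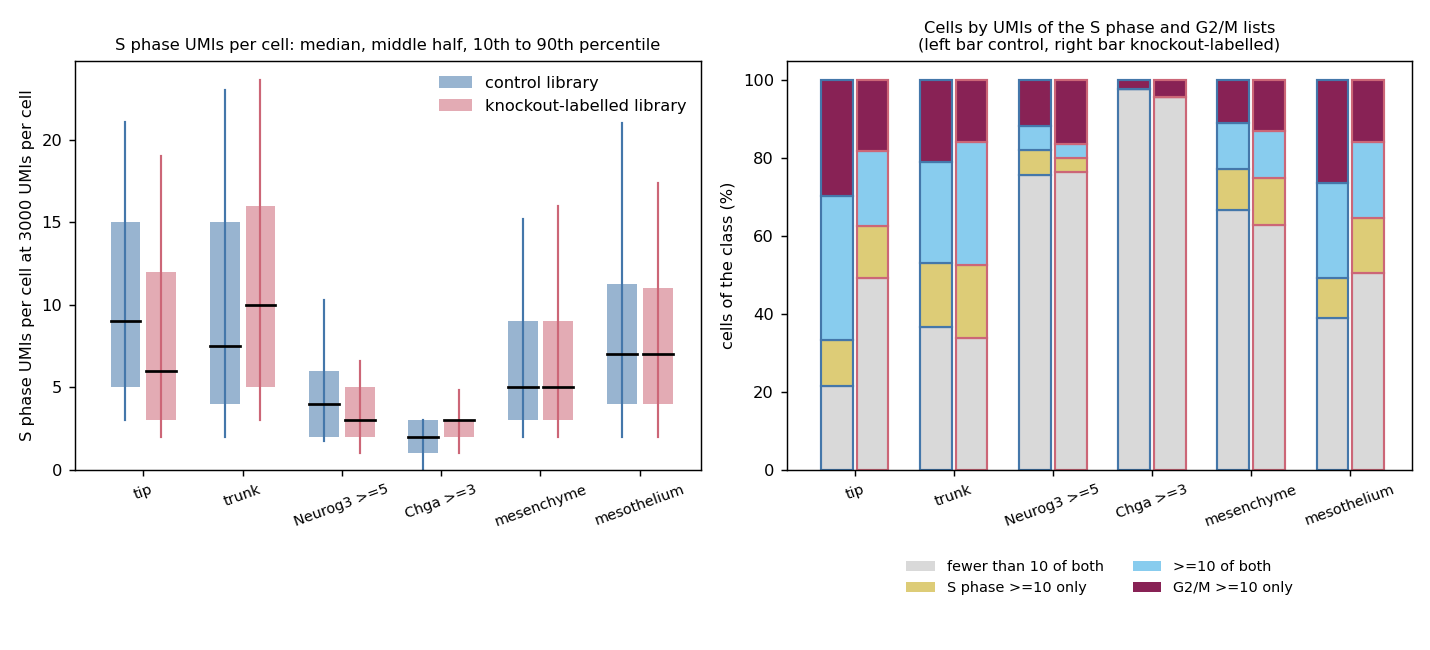
Left, member UMIs per cell after thinning to 3000 UMIs, as the median (black line), the interquartile range (box) and the 10th to 90th percentiles (line) for each class and library. Right, percent of cells of each class by whether they hold at least 10 UMIs of the S phase list, of the G2 and mitosis list, of both or of neither; the grey part of tip is 21.5% in the control and 49.3% in the knockout-labelled library.

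Members varied together from cell to cell in tip, trunk, Neurog3-high cells and mesenchyme. For each member, cells of a class were ranked by their share of UMIs on the other 41 members and split into 3 groups of equal size, and the member's CPM in the top group was set over that in the bottom group. In mesenchyme 42 of 42 and 42 of 42 members were 1.5-fold or more higher in the top group. The background was 4.73% and 4.84% of the genes tested that are not members. For these background genes cells were ranked by the share of UMIs on all 42 members. In tip it was 41 of 42 and 41 of 42 (background 6.73% and 12.1%), in trunk 39 of 40 and 37 of 37 (10.1% and 12.6%), and in Neurog3-high cells 31 of 31 and 14 of 17 (14.6% and 20%). Cells of the top group were deeper, with a median of 7584 and 9009.5 UMIs in mesenchyme against 5239 and 6288 in the bottom group. The members that followed the rest most steeply in mesenchyme were Rrm2 (log2 ratio 3.39 and 3.48), Ccne2 (3.01 and 3.59), Clspn (2.94 and 3.05) and Atad2 (2.81 and 3.06). Ubr7 (0.94 and 0.82) and Cdca7 (0.78 and 1.13) followed least in the control library.

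Ranking tip cells by the G2 and mitosis list instead separated the members in the control library. From the bottom to the top group, 9 of 42 members were 1.5-fold or more higher (background 8.67%) and 10 were lower by as much (background 6.72%). Among the members lower at high mitotic RNA, Cdc6 stood at 24.0 and 1.51 CPM in the bottom and top group, Mcm4 at 67.4 and 29.6 and Mcm3 at 129 and 68.3, joined by Ung at 116 and 23.6 and Casp8ap2 at 41.1 and 19.6. Those higher included Tyms (log2 ratio 1.32), Rrm1 (1.13) and Blm (1.38). In tip of the knockout-labelled library 38 of 41 were higher and none lower (background 12.2% and 8.49%), and in mesenchyme 38 and 35 of 42 were higher and none lower (background 5.68% and 5.52% higher, 0.915% and 1.59% lower). In mesenchyme Rrm2, Clspn and Atad2 led this ranking too, at 3.49, 3.12 and 2.68 in the control library, and Cdca7, Mcm4 and Mcm6 stood lowest, at 0.09, 0.22 and 0.40. The bottom group of tip cells held 2852 and 1318 CPM of S phase RNA and the top group 2917 and 3916, so these groups of the libraries hold unlike cells. The median member ratio of top over bottom group was 0.12 and 1.55 in tip and 1.34 and 1.33 in mesenchyme. It was 1.07 and 1.04 in trunk and 0.50 and 1.31 in mesothelium. This ranking was added after values were seen.

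In the authors' deposited table of genes per cluster, which gives an average fold of 1 cluster over the rest for 7 unnamed clusters and is read as a natural log, whose base its header does not state, 39 of the 42 members were listed; Blm, Brip1 and Ubr7 have no row. One cluster, led by 2810417H13Rik, Hist1h2ap and Rrm2, lists all 39 as higher in the authors' deposited table, where 58.1% of its rows are higher, with folds of 2.70 for Rrm2, 2.18 for Gmnn and 2.08 for Pcna down to 1.32 for E2f8. Members lead that cluster, so this is a description of it and no test. The cluster led by Neurog3 and Cck lists 20 members, all lower, in the authors' deposited table, where 45.7% of its rows are lower, with Gmnn at 0.453 and Rrm2 at 0.510. The cluster led by Gcg, Pyy and other hormone-cell genes lists 26, all lower, in the authors' deposited table, where 38.8% of its rows are lower, with Hells lowest at 0.445 and Rfc2 nearest to 1 at 0.777. The cluster led by Ctrb1, an acinar gene, lists 7 members, all lower, in the authors' deposited table, where 69.8% of its rows are lower, with Rrm2 at 0.653. Of the genes of the cluster led by Ube2c, Cenpf and Top2a, Tyms (1.59) and Gmnn (1.49) were higher and Ung lower (0.649) in the authors' deposited table. The table does not say which cells of which library entered these clusters.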

How the data were processed

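Single pancreatic cells of 1 control and 1 knockout-labelled embryo were counted by the authors with Cell Ranger on GRCm38 (mm10), per the submitters' processing notes, and the deposited matrices hold raw UMI counts. The deposited cluster table gives log folds averaged by cluster, per the file headers, and p-values over cells, which are not used. The header names no base; the deposited log folds were taken as natural log, which Seurat, named in the submitters' processing notes, wrote in those versions, and are printed as folds. Cells with under 500 genes, under 1000 UMIs or over 10% mitochondrial UMIs were left out, as were 122 and 74 barcodes with the highest simulated-doublet scores (0.8% per 1000 barcodes). Classes needed 3 markers; 181 and 221 cells met no gate or several. UMIs were summed per class and library and divided by the class total (CPM), with exact Poisson and conditional binomial intervals. Libraries were compared at 1.5-fold and classes at 2-fold; with 1 library per group no gene was tested. Any member could be named; Mcm2 to Mcm7, Pcna, Tyms, Rrm1, Rrm2 and the 4 highest and 4 lowest members of a comparison are given with values, and of other lists the 4 highest and 4 lowest. Members and lists were chosen with earlier results of these data known. Alternatives were other cell filters, gates, doublet rates, pseudocounts, scalings and depths. Scripts used Python 3.11.15, numpy 2.4.6, scipy 1.17.1, scikit-learn 1.9.0 and, for TMM factors alone, edgeR 4.0.16. Ratio intervals were checked on simulated Poisson counts of trunk cells, which hold no spread between cells.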

Additional observations from a re-analysis of the deposited data

Results flagged for a closer look

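The S phase sum of the knockout-labelled over the control library had a log2 ratio of 0.10 in trunk cells, above 0, and lay below 0 in 4 other classes. It was -0.24 in tip, -0.10 in Neurog3-low cells, -0.21 in Neurog3-high cells and -0.18 in mesothelium; with gates on cells thinned to 5000 UMIs Neurog3-low cells turned to 0.14. These opposite directions rest on 1 library on each side, and the difference between the classes was not tested. The intervals of these ratios leave out the spread between cells.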

How the results depend on the processing

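Values are log2 ratios of the S phase sum unless stated. With cells thinned to 3000 UMIs, knockout-labelled over control was -0.33 in tip and 0.0422 in mesenchyme, Neurog3-high over trunk -1.53 in the knockout-labelled library, and Chga cells over trunk -2.45 and -2.01. With gates on cells thinned to 5000 UMIs, mesenchyme turned to -0.064 and Neurog3-low cells to 0.14, and Neurog3-high over trunk was -1.003 and -1.52; the cause was not tested. With the tip gate at 20 and trunk at 2 tip UMIs, tip was -0.28 and control Neurog3-high over trunk -0.76. With mean CPM over cells, tip was -0.31 and knockout-labelled Neurog3-high over trunk -1.37. Chga cells over trunk gave -1.91 in the control library without doublet removal, -2.56 without haemoglobin, mitochondrial and ribosomal genes, -2.52 and -2.68 with median-of-ratios and -2.54 and -2.70 with TMM scaling. Mesenchyme gave 0.0488 with TMM and 0.0411 with gates at 2 markers. Members 2-fold lower in Neurog3-high cells numbered 6 and 15 with a pseudocount of 20, and with at least 100 UMIs 14 in the knockout-labelled library and 22 in control Chga cells; this filter tests fewer genes. Tip cells under both cuts in the knockout-labelled library were 40.2% with a cut of 8 and 57.1% with 12 UMIs, cuts chosen after seeing the data (19.6% and 25.6% in control). No paired analysis was possible because each group is 1 library.

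The trunk ratio stayed above 0 and the tip ratio below 0 under each of the 13 alternatives run. One embryo per group, small classes (23 Chga cells) and gates on RNA counts limit these values: a difference between embryos cannot be told apart from one between genotypes, depth differs between classes, and fewer cycling cells cannot be told from less RNA per cell.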
